A study of Mus musculus with 14 samples.

Results

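The Tsk2 mutation of the collagen gene Col3a1 was followed in 2 systems, whole skin and cultured fibroblasts, and its effect in one was set against its effect in the other. For each gene the effect in skin was the mean of the Tsk2 skin arrays minus that of the WT (wild-type) skin arrays. The effect in fibroblasts was the mean of the arrays of Tsk2-transfected fibroblasts minus that of WT-transfected fibroblasts. The difference of the effects, skin minus fibroblasts, was then formed for 19532 named genes from all 14 arrays of the series. The mice were female and 4 weeks old, and 4 skin arrays were of Tsk2 and 4 of WT animals. The series title writes the mutant genotype as Tsk2/+. All 6 fibroblast samples were Col3a1 knockout cells, with their own Col3a1 knocked out, and 3 of them had received the Tsk2 allele of Col3a1 and 3 the WT allele. Knockout cells without a transfected allele were not analysed here. Values are log2 ratios of each sample, labelled with Cy5, to a universal mouse reference RNA, labelled with Cy3, on 2-colour whole-genome Agilent arrays. An effect of 1 on this scale is a doubling in the Tsk2 samples. The skin and fibroblast comparisons share no sample, only the reference RNA.

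Type III collagen is built from 3 chains made by Col3a1 and runs with type I collagen in the fibrils of the dermis. It is made as a procollagen, and the series title places the Tsk2 mutation in the N-terminal propeptide. Tsk2 mice have tight, fibrotic skin. Fibroblasts are the main source of collagen in the dermis, whereas whole skin also holds epidermis, hair follicles, fat, muscle, vessels and immune cells that the cultures lack.

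RNA of skin and of fibroblasts was extracted with different kits. The labels do not say that samples of 1 transfection came from separate cultures, and WT-transfected samples 3A and 3B carry 1 transfection number, so p-values reflect the spread among samples that may be no more than technical repeats. Skin varied more than the cultures, with a median within-group SD of 0.34 across genes in skin and 0.21 in fibroblasts. WT skin replicate 4 stood apart from the other WT mice. Its 18 measured hair shaft and root sheath genes averaged 4.56, against 6.44 to 6.57 in WT skin replicates 1 to 3 and 0.72 to 3.85 in Tsk2 skin. WT skin replicate 2 held 12391 probes at exactly 0, the most of any array, where the lowest count was 312. The 19 measured epidermal keratinocyte genes averaged 4.36 to 5.54 in Tsk2 skin and 4.23 to 4.87 in WT skin, against -0.13 to -0.10 in Tsk2-transfected and -0.21 to -0.039 in WT-transfected fibroblasts. The 20 measured dermal fibroblast genes averaged 0.85 to 1.0 in Tsk2-transfected and 0.64 to 0.68 in WT-transfected fibroblasts. Of this list, Pdgfrb was above the reference in all 6 cultures, and Col1a1 averaged close to the reference in the WT-transfected ones.

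On all arrays, more genes passed the test in skin than in fibroblasts, though the skin count depended on single mice. In a limma fit of all 14 arrays, the difference of the effects passed the threshold, a Benjamini-Hochberg adjusted p of 0.05 over all genes, for 273 genes (1.4% of those tested). It was positive for 176 (0.901%) and negative for 97 (0.497%). The effect was the larger in skin for 242 of the 273 and the larger in fibroblasts for 31, and the fibroblast effect was under 0.3 in size for 142. Fitted on their own arrays, skin gave 568 genes past the threshold, 373 higher (1.91%) and 195 lower (0.998%), and fibroblasts gave 10, 3 higher (0.0154%) and 7 lower (0.0358%). By limma 0 of the skin genes passed without Tsk2 skin replicate 2, 3 or 4 or WT skin replicate 1, 2 or 3, with 3474 to 4145 genes at an unadjusted p under 0.05. The count was 451 without Tsk2 skin replicate 1 and 1827 without WT skin replicate 4. Fibroblasts gave 0 to 3 genes by limma with one of their arrays left out (1461 to 2352 at an unadjusted p under 0.05). Among the 273 the effects pointed in opposite directions for 221, and in 110 of these the Tsk2 and WT samples did not overlap in either system. For 66 of the 110 the gene was higher in Tsk2 skin and lower in Tsk2-transfected fibroblasts, and for 44 the reverse. The 273 were chosen by the difference, which favours opposite signs, so these counts describe them and are no test. Over all 19532 genes 9281 had opposite signs, and 287 (1.47%) had them without overlap in either system.

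A direction held in common was tested on the same fit as the mean of both effects. It passed the threshold with the same sign in both systems for 321 genes, 227 higher (1.16%) and 94 lower (0.481%) with the Tsk2 allele. In 170 of them the samples did not overlap in either system, 128 higher and 42 lower. A mean effect can pass on 1 large effect, and no gene passed when the larger of the 2 p-values of a gene was required to pass (0 genes, lowest adjusted p of 1 by limma, with 648 genes at an unadjusted p under 0.05 in both systems, 381 of them with the same sign). The plot of both effects by gene shows how few points lie along either diagonal. Over all 19532 genes the effects had a Pearson r of 0.038 and a Spearman rho of 0.059, a description across genes, which are not independent replicates and share arrays. The signs were the same for 10241 genes (52.4%), both above 0 for 5369 and both below 0 for 4872. The effect was above 0 for 10297 genes in skin and for 9726 in fibroblasts. Without the need for the same sign, the mean effect passed as higher for 260 genes and as lower for 111. These counts are the background for the gene lists below. Of the 371 genes whose mean effect passed in either direction, 102 also passed for the difference between the systems. Samples did not overlap in skin for 9.33% of genes as higher and 6.75% as lower, and in fibroblasts for 9.81% as higher and 10.2% as lower. They did not overlap in either system for 481 genes with the same sign (2.46%) and 287 with opposite signs (1.47%).

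**Figure D1:**
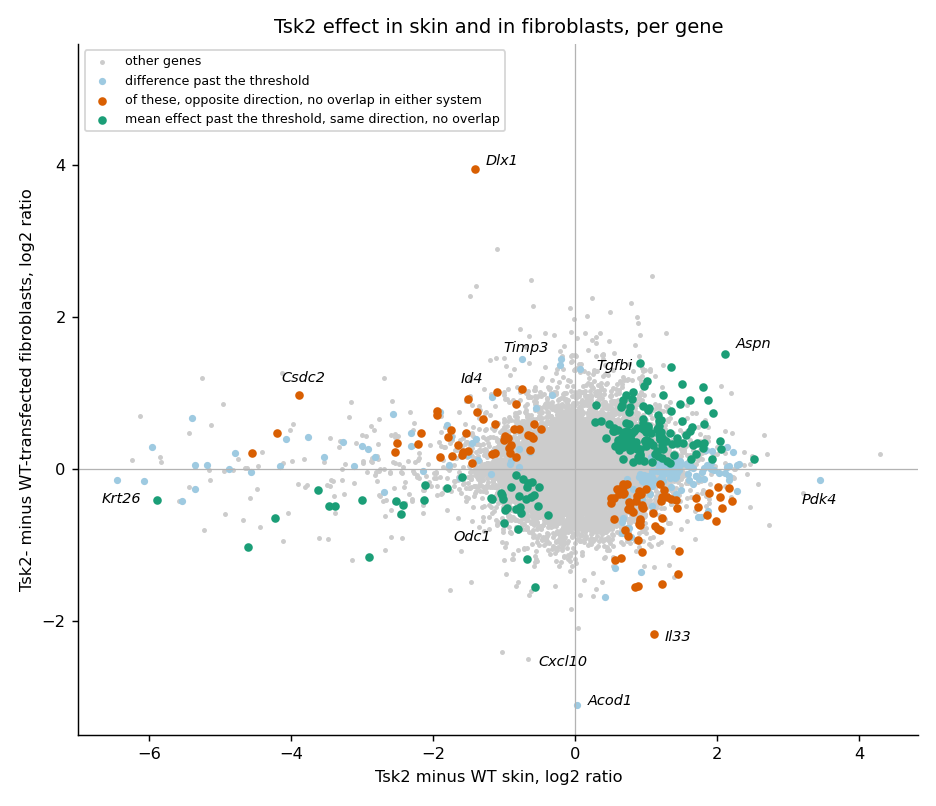
Tsk2 effect in fibroblasts (Tsk2-transfected minus WT-transfected, log2, vertical axis) against the Tsk2 effect in skin (Tsk2 minus WT, log2, horizontal axis), 1 point a gene for 19532 genes. Colours mark the 273 genes whose difference passed the threshold, the 110 of these with opposite directions and no overlap, and the 170 whose mean effect passed with the same sign and no overlap. The skin axis holds the wider spread, with an SD of the effects of 0.62 in skin and 0.34 in fibroblasts.

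The number of genes past the threshold changed with single arrays. The 273 differences became 1492 without WT skin replicate 4 and 543 without Tsk2 skin replicate 1. They became 105, 127 and 84 without Tsk2 skin replicates 2, 3 and 4, and 42, 170 and 63 without WT skin replicates 1, 2 and 3. Leaving out a fibroblast array gave 16, 12 and 61 without Tsk2-transfected replicates 1, 2 and 3, and 40, 6 and 13 without WT-transfected replicates 1, 3A and 3B. The 321 genes whose mean effect passed with the same sign are called shared genes here, though none passed in both systems. Their number ran from 24 without WT-transfected replicate 3A to 1325 without WT skin replicate 4. The sign of each of the 273 differences was kept in each of these 14 fits. With 3A and 3B taken as 1 sample 7 differences and 35 mean effects passed. With the transfection numbers taken as a pairing, 0 differences (2581 genes at an unadjusted p under 0.05) and 1 shared gene passed by limma. Of 59 differences named in what follows (Krtap4-16 aside), between 4, without WT-transfected replicate 3A, and 59, without WT skin replicate 4 or Tsk2 skin replicate 1, stayed past the threshold. Of 50 named mean effects, between 10, without WT-transfected replicate 3A, and 50, without WT skin replicate 4, did so. The differences of Ccl5, Cox6a2 and Il33 and the mean effects of Aspn, Cox6a2, Fhl1, Igf2, Krtap28-13, Krtap4-16, Plk5, Slc25a48, Tgfb3 and Tgfbi stayed past the threshold whichever array was left out. The mean effects of Cox6a2 and Igf2 lay mainly in skin and that of Slc25a48 mainly in fibroblasts. Among the named genes, with quantile normalization the calls of Eno3, Fmod, H19, Lum and Ttn for the difference and of Sparcl1 and Twist1 for the mean effect were lost. With exact zeros missing those of Bambi, Krtap22-2 and Ttn for the difference and of Clmn and Ttn for the mean effect were lost. Genes listed at 0 on all arrays of a group, such as Dlx1, Krtap28-13 and Bmx, could not be tested in that setting. With the most variable probe of a gene those of Id4, Mmp3, Myadml2 and Ttn for the difference and of Fbln1, Odc1, P3h3, Sparcl1 and Ttn for the mean effect were lost.

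Of the genes higher in Tsk2 skin and lower in Tsk2-transfected fibroblasts with samples apart in both, the largest difference was that of Il33, an alarmin cytokine that epithelial cells and fibroblasts store in the nucleus and release on damage. In skin it read -0.30, 0.47, -0.68 and -0.30 on the Tsk2 arrays, against -1.63, -1.06, -1.47 and -1.07 on the WT arrays. In fibroblasts it read -2.11, -2.10 and -1.88 with the Tsk2 allele, against -0.20, 0.24 and 0.39 with the WT allele. Every Tsk2 skin sample lay above every WT skin sample, and every Tsk2-transfected sample lay below every WT-transfected one. The effect was 1.11 in skin and -2.17 in fibroblasts, a difference of 3.28 ± 0.35 (SE; adjusted p = 0.0109 by limma). It stayed past the threshold whichever array was left out (adjusted p of 0.000370 to 0.0430).

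The other 11 of the 12 largest such differences, with samples apart in both systems, were of mixed function. Cytl1, a secreted cytokine-like protein, differed by 1.45 in skin and -1.38 in fibroblasts (adjusted p = 0.0215 for the difference), though 83.3% of its fibroblast values were repeated values, shared exactly by 50 or more probes of an array, whose origin is not given in the sources used here. Clec2d, a C-type lectin bound by a receptor of natural killer cells, read 1.93, 2.04, 1.98 and 3.10 in Tsk2 skin, against 0.50, 1.59, 0.53 and 1.54 in WT skin. Its values with the Tsk2 allele were -0.023, 0.26 and -0.57, against 1.08, 1.44 and 1.68 with the WT allele, so the groups were apart in opposite directions. Ptpn22, a tyrosine phosphatase of lymphocytes, had effects of 0.89 in skin and -1.54 in fibroblasts. Lamb3, the beta chain of the laminin of the epidermal basement membrane, had 0.85 and -1.56, and Kcne1l, a regulatory subunit of potassium channels, 1.46 and -1.08. For Fam180a the effects were 1.98 in skin and -0.69 in fibroblasts. The other members lay mainly on the skin side. Adssl1, the muscle form of adenylosuccinate synthase, read 2.40, 3.45, 2.86 and 3.44 in Tsk2 skin, against 0.74, 0.92, 0.52 and 1.12 in WT skin, and its fibroblast effect was -0.41. Mrln, the muscle micropeptide myoregulin, Pacsin3, a membrane-bending protein, Bcl2l15, of the Bcl-2 family, and Cdh15, the cadherin of muscle satellite cells, had skin effects of 2.07, 1.86, 2.16 and 2.04. Their fibroblast effects were -0.51, -0.60, -0.25 and -0.37. The 12 had adjusted p-values of 0.0109 to 0.0393 for the difference.

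Among the genes lower in Tsk2 skin and higher in Tsk2-transfected fibroblasts, the homeobox gene Dlx1 had the largest difference, but it could not be given as a fold. It read -0.99, -2.59, -1.26 and -3.65 in Tsk2 skin, against -0.73, -0.77, -0.45 and -0.89 in WT skin. In fibroblasts the 3 arrays with the Tsk2 allele list it as 0, against -4.50, -3.86 and -3.51 on the WT arrays. A listed 0 can be a failed estimate, and the difference of -5.36 (adjusted p = 0.0121 by limma) is no fold; the call was lost without WT-transfected replicate 3A (adjusted p = 0.0514). Epha4, a receptor for ephrins, was above the reference on every array. It read 2.79, 2.45, 2.20 and 1.41 in Tsk2 skin, against 4.35, 4.83, 3.93 and 3.54 in WT skin. With the Tsk2 allele it read 2.50, 2.12 and 2.02 in fibroblasts, against 1.44, 1.61 and 1.43 with the WT allele. The groups were apart in both systems, in opposite directions, and the difference was -2.67 ± 0.46 (SE; adjusted p = 0.0218).

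The netrin receptor Unc5b had effects of -1.95 in skin and 0.76 in fibroblasts, and Lurap1l -1.51 and 0.92. Csdc2, an RNA-binding protein with a cold-shock domain, had the larger skin effect, -3.89, and 0.98 in fibroblasts. Its WT skin values were 2.88, 4.17, 3.75 and -0.053, so the last mouse lay far below the others, while Tsk2 skin read -1.62 to -0.98. Bmp8a, a ligand of the BMP family, had -4.20 in skin and 0.48 in fibroblasts. The vesicle-traffic protein Sytl2 had -1.75 and 0.51, the antioxidant enzyme Gpx2 -2.18 and 0.47, and Ccdc68 -2.22 and 0.33. For the kinase Hunk, the CTP synthase Ctps and the hair keratin-associated Krtap5-2 the skin effects were -2.52, -2.55 and -4.55, and the fibroblast effects were 0.34, 0.23 and 0.21. All values of Krtap5-2 in fibroblasts were repeated values. These 12 genes had adjusted p-values of 0.0121 to 0.0422.

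Genes of BMP signalling were mostly lower in Tsk2 than in WT skin, with little difference over the list in fibroblasts. BMPs are growth factors of the hair follicle and the dermis, the Id genes are their transcriptional targets, and Smad6, Smad7 and Bambi restrain their signal. Of 19 measured members, 3 passed the threshold for the difference, all negative, and 14 had opposite signs in skin and fibroblasts. The list averaged 0.54 to 1.08 in Tsk2 skin and 1.23 to 1.94 in WT skin. In fibroblasts 12 of the 19 were higher with the Tsk2 allele, and the list averaged 0.73, 0.56 and 0.33 with it, against 0.42, 0.47 and 0.51 with the WT allele, which overlapped. The median effect was -0.68 in skin and 0.14 in fibroblasts, beside 0.030 and -0.00033 over all genes. Id4 read 5.26, 4.90, 5.02 and 4.04 in Tsk2 skin, against 5.96, 5.97, 6.28 and 5.44 in WT skin. With the Tsk2 allele fibroblasts read 4.78, 4.63 and 4.29, against 3.63, 3.38 and 3.64 with the WT allele. The groups did not overlap in either system, and the effects of -1.11 and 1.02 gave a difference of -2.13 ± 0.38 (SE; adjusted p = 0.0248, and 0.0568 with the most variable of its probes in place of their mean). Bambi had effects of -1.75 in skin and 0.43 in fibroblasts, and Smad6 -1.79 and 0.43 (adjusted p = 0.0215 and 0.0274 for the differences). The 2 probes of Bambi disagreed in size, at -2.71 and -0.79 in skin and -0.090 and 0.94 in fibroblasts, and its difference was not past the threshold with exact zeros missing (adjusted p = 0.116). That of Smad6 passed in 4 of the 14 fits with an array left out. Id1, Id2 and Id3 had differences of -0.74, -0.70 and -0.74, none past the threshold, and neither was Msx2, a homeobox target of BMPs, at -2.54 in skin and 0.42 in fibroblasts (adjusted p = 0.132). Hair shaft genes were lower in Tsk2 skin too, averaging 0.72 to 3.85, against 4.56 to 6.57 in WT skin, and their part in the values of BMP genes was not tested. In whole skin, fewer cells of a type and less RNA per cell cannot be told apart. The ligand Bmp2 was of the same sign in both. It read 1.62, 2.03, 2.04 and 2.04 in Tsk2 skin, against 3.19, 2.12, 2.98 and 2.16 in WT skin, and 0.89, 0.65 and 0.52 in Tsk2-transfected fibroblasts, against 1.42, 2.04 and 2.14 in WT-transfected ones. It was lower in both, with a mean effect of -0.93 ± 0.19 (SE; adjusted p = 0.0354).

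**Figure D2:**
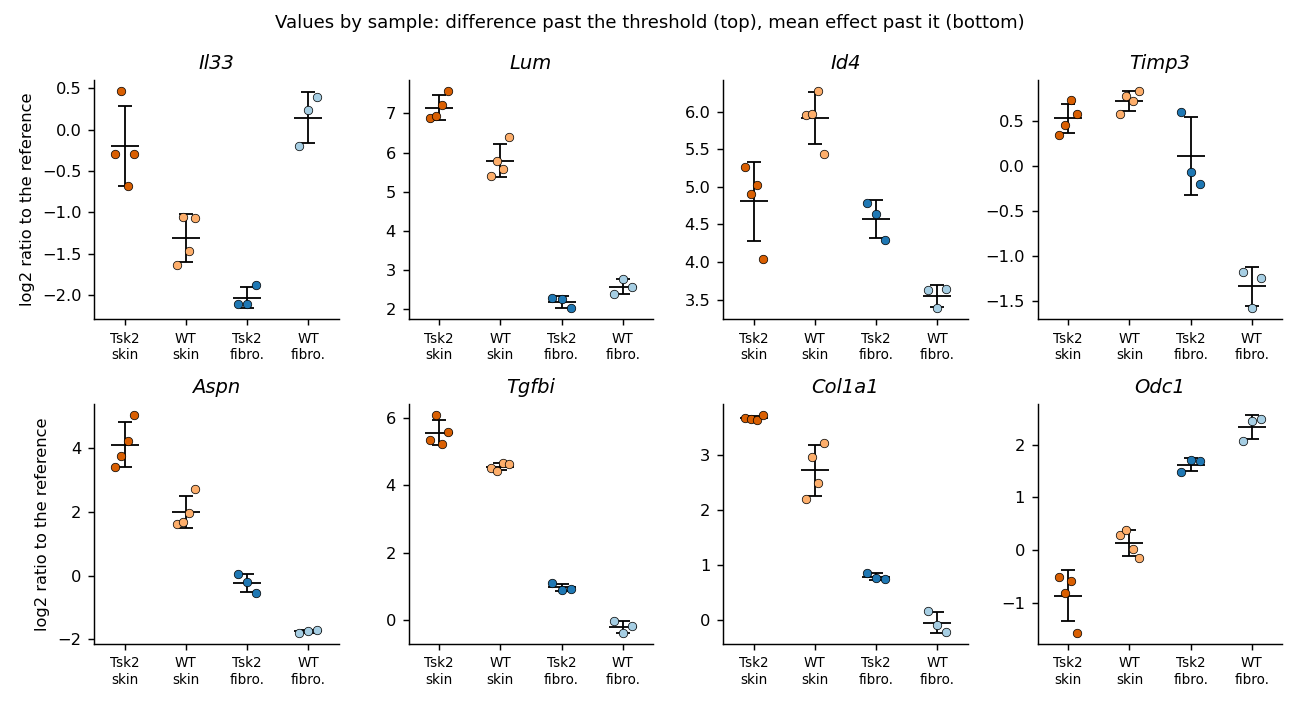
Log2 ratio to the reference (vertical axis) of 8 genes on each of the 14 arrays, in 4 columns a panel: Tsk2 skin, WT skin, Tsk2-transfected and WT-transfected fibroblasts. Points are arrays and bars are the mean ± SD. Il33, Lum and Id4 change direction between skin and fibroblasts, Timp3 differs in fibroblasts, and Aspn, Tgfbi, Col1a1 and Odc1 move the same way in both.

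Extracellular matrix genes were among those higher in both systems. Aspn, asporin, a small leucine-rich proteoglycan that binds collagen, read 3.4, 3.75, 4.23 and 5.04 in Tsk2 skin, against 1.62, 1.68, 1.97 and 2.71 in WT skin. Fibroblasts read 0.035, -0.19 and -0.54 with the Tsk2 allele, against -1.80, -1.75 and -1.71 with the WT allele. No Tsk2 sample overlapped a WT sample in either system. The mean effect was 1.82 ± 0.25 (SE; adjusted p = 0.00745 by limma), and the 95% interval of the difference between systems ran from -0.48 to 1.66. Tgfbi, a matrix protein induced by TGF-beta, read 5.35, 6.08, 5.22 and 5.58 in Tsk2 skin, against 4.52, 4.41, 4.65 and 4.63 in WT skin. It read 1.10, 0.88 and 0.93 in Tsk2-transfected fibroblasts, against -0.026, -0.38 and -0.18 in WT-transfected ones. Its effects were close in size, 1.01 in skin and 1.16 in fibroblasts, with an interval of the difference from -0.73 to 0.41 (mean effect 1.08 ± 0.13, SE; adjusted p = 0.00679). Both calls held whichever array was left out.

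Col1a1, a chain of type I collagen, averaged 3.67 ± 0.042 in Tsk2 skin and 2.72 ± 0.46 in WT skin (SD, n = 4 each). In fibroblasts it averaged 0.79 ± 0.062 with the Tsk2 allele and -0.042 ± 0.19 with the WT allele (SD, n = 3 each). The effects were 0.95 and 0.83, and their mean passed the threshold (adjusted p = 0.0143), with an interval of the difference from -0.50 to 0.74. The call was lost without Tsk2-transfected replicate 1 or WT-transfected replicate 3A or 3B, at adjusted p-values of up to 0.0570. Of 11 measured fibrillar collagen genes, 9 were higher with the Tsk2 allele in both systems, beside 5369 of all 19532 genes. For the mean effect 3 of the 11 passed, and 0 passed for the difference by limma (2 at an unadjusted p under 0.05, lowest adjusted p of 0.191). The others past the threshold were Col5a1 and Col5a2, chains of the type V collagen that starts fibrils, at 1.23 and 1.15 in skin and 0.32 and 0.53 in fibroblasts (adjusted p = 0.0419 and 0.0429). In WT skin replicate 4 the list averaged 1.43, against 0.35 to 0.68 in the other WT mice and 1.44 to 1.5 in Tsk2 skin.

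Col3a1, the mutated gene, was not past either test. Its mean over 3 probes was 2.17, 2.22, 2.58 and 2.50 in Tsk2 skin, against 1.14, 1.80, 1.2 and 2.21 in WT skin, and -2.20, -2.32 and -2.23 in Tsk2-transfected fibroblasts, against -2.30, -2.39 and -2.24 in WT-transfected ones. The WT mice overlapped the Tsk2 mice, and the fibroblast groups overlapped as well. The effects were 0.78 and 0.062, with a difference of 0.72 ± 0.32 (SE; adjusted p = 0.273). The 3 probes had effects of 1.03, 1.03 and 0.27 in skin and, in the same order, -0.017, 0.34 and -0.14 in fibroblasts. Whether the probes lie within the transfected construct is not given in the sources used here. Col1a2, the partner chain of type I collagen, had effects of 1.04 in skin and 0.77 in fibroblasts (adjusted p = 0.0944 for the mean effect). In WT skin it spread widely, over -0.16 to 1.99, against 1.82 to 2.30 in Tsk2 skin.

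Among small leucine-rich proteoglycans, Lum and Fmod had the larger effect in skin. Lum, lumican, a proteoglycan that spaces collagen fibrils, read 6.88, 6.93, 7.21 and 7.58 in Tsk2 skin, against 5.41, 5.79, 5.59 and 6.40 in WT skin. It read 2.28, 2.27 and 2.02 with the Tsk2 allele in fibroblasts, against 2.40, 2.77 and 2.56 with the WT allele. The groups did not overlap in either system and pointed in opposite directions, with a difference of 1.74 ± 0.33 (SE; adjusted p = 0.0290, and 0.100 with quantile normalization). Fmod, fibromodulin, had effects of 1.85 in skin and 0.25 in fibroblasts, and both its difference and its mean effect passed (adjusted p = 0.0407 and 0.0143). With quantile normalization its difference did not (adjusted p = 0.0577), and it passed in 2 of the 14 fits with an array left out. Dcn, decorin, had 1.30 and 0.17, past neither test. Of 13 measured small leucine-rich proteoglycans, 10 were higher in both systems (5369 of all 19532 genes), with medians of 0.82 in skin and 0.25 in fibroblasts.

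Genes of elastic fibres and of collagen processing were mostly higher in Tsk2 than in WT skin, 14 of 15 and 17 of 22 measured, and by limma 0 of either list passed for the difference (7 and 6 at an unadjusted p under 0.05). For the mean effect 2 of each list passed. Fbln1, fibulin-1, had effects of 1.15 in skin and 0.020 in fibroblasts, Ltbp2, a microfibril protein, 1.42 and 0.22, and Eln, elastin, 1.01 and 0.068. The first 2 passed for the mean effect (adjusted p = 0.0430 and 0.0201) and Eln did not (0.138). Lox, which oxidises lysines for crosslinks, read -1.24, -1.26, -1.69 and -1.11 in Tsk2 skin, against -3.32, -3.26, -3.20 and -2.0 in WT skin, and 1.46, 1.60 and 1.36 in Tsk2-transfected fibroblasts, against 1.29, 0.95 and 0.67 in WT-transfected ones. It was higher in both systems without overlap, with a mean effect of 1.06 ± 0.20 (SE; adjusted p = 0.0266). Its relative Loxl2 had 0.53 and 0.88, not past the threshold (0.0655). P3h3, of the collagen prolyl hydroxylase family, had 0.88 and 0.16 (adjusted p = 0.0460 for the mean effect). Among matricellular proteins, which sit in the matrix and act on cells, Sparcl1 passed for the mean effect at 1.09 in skin and 0.15 in fibroblasts (0.0331), and Sparc, at 1.04 and 0.43, did not (0.0563). Tnc, tenascin-C, was lower in every Tsk2 skin sample than in any WT one, at -0.71, and had 0.11 in fibroblasts (adjusted p = 0.104 for the difference). Fn1, fibronectin, Postn, periostin, and Thbs1, thrombospondin-1, had differences of 0.27, 0.56 and -0.43, none past the threshold.

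TGF-beta is the best known inducer of collagen synthesis, and its isoforms are held in the matrix by latency proteins. Of 16 measured ligands, receptors and latency proteins, 2 passed for the mean effect, Ltbp2 and the ligand Tgfb3, and 0 for the difference by limma (6 at an unadjusted p under 0.05, lowest adjusted p of 0.0601). Tgfb3, chosen after its values were seen, averaged 0.47 ± 0.066 in Tsk2 skin and -0.55 ± 0.32 in WT skin (SD, n = 4 each). In fibroblasts it averaged 0.063 ± 0.14 with the Tsk2 allele and -0.71 ± 0.12 with the WT allele (SD, n = 3 each). The mean effect was 0.90 ± 0.12 (SE; adjusted p = 0.00679) and stayed past the threshold whichever array was left out. Tgfb1 differed little, at 0.21 in skin and -0.077 in fibroblasts (adjusted p = 0.737). Ccn2, connective tissue growth factor, read -0.83, 0.78, 0.058 and 1.75 in Tsk2 skin, against -0.26, 0.066, -0.23 and -0.86 in WT skin, so the skin groups overlapped. In fibroblasts the Tsk2 samples, at 2.86, 2.83 and 2.83, all lay above the WT samples, at 2.52, 2.38 and 2.33. Its difference of 0.33 was not past the threshold and changed sign without Tsk2 skin replicate 4, to -0.11.

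Contractile genes mark myofibroblasts and smooth muscle. Of 19 measured, 7 passed as higher for the mean effect and 1 as lower, Fhl2, at -0.74 in skin and -0.41 in fibroblasts. In Tsk2-transfected fibroblasts 16 of the 19 were higher than in WT-transfected ones. Over all 19532 genes 260 passed as higher and 111 as lower, and 9726 were higher in Tsk2-transfected fibroblasts. Skeletal muscle genes averaged 4.72 to 5.86 in Tsk2 skin and 3.90 to 4.39 in WT skin, and their part in the contractile values of skin was not tested. Acta2, smooth muscle actin, averaged 0.70 ± 0.31 in Tsk2 skin and 0.024 ± 0.14 in WT skin (SD, n = 4 each), and 1.58 ± 0.30 in Tsk2-transfected and 0.67 ± 0.23 in WT-transfected fibroblasts (SD, n = 3 each). Samples did not overlap in either system, and the mean effect was 0.79 ± 0.14 (SE; adjusted p = 0.0199). Fhl1, a LIM protein of muscle, read 5.19, 5.63, 5.6 and 6.01 in Tsk2 skin, against 3.64, 3.28, 3.79 and 4.22 in WT skin, and 1.76, 1.87 and 1.90 with the Tsk2 allele in fibroblasts, against 1.05, 0.88 and 0.85 with the WT allele. Its mean effect of 1.39 ± 0.15 (SE; adjusted p = 0.00669) held whichever array was left out. Calponin, Cnn1, had 0.55 and 0.54, the tropomyosin Tpm2 1.34 and 0.47, and synaptopodin-2, Synpo2, 1.03 and 0.54 (adjusted p = 0.0376, 0.0116 and 0.0103). Myl9, a myosin light chain, had 0.17 and 0.87 (0.0331). Tagln, transgelin, went the other way in skin, with effects of -0.46 and 0.45 and a difference of -0.91 ± 0.23 (SE; adjusted p = 0.0716). Des, the muscle filament desmin, was the member past the threshold for the difference, at 1.79 in skin and -0.040 in fibroblasts (0.0163). The 2 striated muscle actins, Acta1 and Actc1, chosen after their values were seen, were higher without overlap in both systems, with mean effects of 0.91 ± 0.17 and 0.73 ± 0.11 (SE; adjusted p = 0.0250 and 0.0143).

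Promoters of Acta1, Actc1 and Fhl1 are shown because these genes were higher in both systems and share a motif. The CArG box, bound by serum response factor in muscle genes, was sought on both strands in the 250 bases before the start of each gene in RefSeq (GRCm38.p6). It was found in 1.47% of all 32851 promoters and in 3 of 27 promoters (11.1%) of the genes higher in both systems by at least 0.58 without overlap, 26 of whose 33 had a promoter in the table. The 33 included genes of many other kinds, and a match does not show a site in use. Capitals mark the box, which begins 73 bases before the start in Acta1 (chr8:123894776-123894895, minus strand), 47 in Actc1 (chr2:114052876-114052995, minus strand) and 102 in Fhl1 (chrX:56779563-56779682, plus strand).
Acta1: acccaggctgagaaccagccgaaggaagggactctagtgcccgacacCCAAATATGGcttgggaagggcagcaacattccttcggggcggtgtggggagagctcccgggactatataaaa
Actc1: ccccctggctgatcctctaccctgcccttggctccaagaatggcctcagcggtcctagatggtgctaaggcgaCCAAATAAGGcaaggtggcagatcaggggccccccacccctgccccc
Fhl1: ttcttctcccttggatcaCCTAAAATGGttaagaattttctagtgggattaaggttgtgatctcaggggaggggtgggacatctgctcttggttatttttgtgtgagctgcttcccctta

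The other genes higher in both systems were of mixed function. Ptx3, a secreted pentraxin that binds microbes and matrix, read -3.37, -2.35, -2.89 and -2.77 in Tsk2 skin, against -4.14, -4.83, -4.59 and -3.81 in WT skin, and -0.73, -0.33 and -0.68 in Tsk2-transfected fibroblasts, against -1.37, -1.92 and -1.82 in WT-transfected ones. All samples were apart, and the mean effect was 1.31 ± 0.19 (SE; adjusted p = 0.0116). Dner, a transmembrane protein with EGF repeats, had effects of 1.35 in skin and 1.34 in fibroblasts, with 62.5% repeated values in skin. Maob, a monoamine oxidase, had 1.24 and 0.97, Ptgfr, the receptor of prostaglandin F, 1.48 and 0.85, and Clmn, calmin, 0.81 and 1.01. The 2 probes of Clmn disagreed in fibroblasts, at 2.07 and -0.048, and its mean effect was not past the threshold with exact zeros missing (adjusted p = 0.0943) and passed in 2 of the 14 fits with an array left out. Plk5, of the polo-like kinases, had 0.96 and 1.09, and Col22a1, a collagen of tissue junctions, 1.62 and 0.91, with 83.3% and 100% repeated values in fibroblasts. The tyrosine kinase Bmx was listed at 0 on all 4 WT skin arrays, against 1.65, 0.49, 0.83 and 0.69 in Tsk2 skin, so its skin effect has no size. These 7 had adjusted p-values of 0.0103 to 0.0453 for the mean effect. Pdgfrb, the receptor of platelet-derived growth factor on fibroblasts, and Twist1, a transcription factor of mesenchyme, also passed for the mean effect, at 1.24 and 1.43 in skin and 0.39 and 0.16 in fibroblasts (0.0199 and 0.0295).

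Fewer genes were lower in both systems. Odc1, ornithine decarboxylase, which starts polyamine synthesis, read -0.52, -0.81, -0.58 and -1.57 in Tsk2 skin, against 0.29, 0.37, 0.015 and -0.16 in WT skin. Fibroblasts read 1.48, 1.71 and 1.68 with the Tsk2 allele, against 2.08, 2.45 and 2.49 with the WT allele. The groups were apart in both systems, and the mean effect was -0.86 ± 0.17 (SE; adjusted p = 0.0292). It was not past the threshold with the most variable probe (adjusted p = 0.0511), and it passed in 6 of the 14 fits with an array left out. Smox, spermine oxidase, another enzyme of polyamines, had effects of -0.80 and -0.79 with a mean of -0.79 ± 0.14 (SE; 0.0208), and the interval of its difference ran from -0.63 to 0.59. The remaining genes past the threshold with effects of at least 0.58 in both were Bmp2, given above, and Krtap28-13, Krtap4-16, Calhm4 and Bean1. Krtap28-13 and Krtap4-16 are hair keratin-associated proteins and Calhm4 is a member of the calcium homeostasis modulators. Their skin effects were -2.90, -4.23, -4.61 and -2.45, and 58.3% to 100% of their fibroblast values were repeated values, with Krtap28-13 listed at 0 on all 3 Tsk2-transfected arrays. Krtap4-16 also passed for the difference (-3.58; adjusted p = 0.0256). The homeobox gene Dlx4 was apart in both systems, at -2.49 and -0.60, and did not pass (adjusted p = 0.0516). Of 27 measured cell cycle genes, 19 were lower in both systems, none passed either test by limma (0 and 1 at an unadjusted p under 0.05 for the difference and the mean effect), and the medians were -0.45 in skin and -0.17 in fibroblasts. Tsk2 skin replicates 2 and 4 averaged -1.98 and -2.19 over this list, replicates 1 and 3 -0.84 and -0.72, and the WT mice -1.13 to -0.70.

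The largest differences came from skin alone. Hair shaft and inner root sheath genes, keratins and partners that build the hair, were lower in Tsk2 skin for all 18 measured members, and 6 passed for the difference. The median effect was -4.09 in skin and -0.14 in fibroblasts, where 11 of the 18 held repeated values on every array. Krt33a, a hair shaft keratin, read 5.13, 2.63, 2.45 and 2.50 in Tsk2 skin, against 10.01, 9.26, 10.23 and 6.77 in WT skin, and 0 to 0.14 in Tsk2-transfected fibroblasts, against 0.26 to 0.63 in WT-transfected ones. Tsk2 skin replicate 1 stood nearest to the WT mice, WT skin replicate 4 nearest to the Tsk2 mice, and the genotypes did not overlap (difference -5.49 ± 1.10, SE; adjusted p = 0.0363). With the fibroblast effect under 0.3 in size, the largest negative differences were those of Krt26, an inner root sheath keratin (-6.32), Krtap4-13 (-6.26), Prr9 (-5.93), Krtap5-1 (-5.41), Krtap5-4 (-5.25), Krt34 (-5.09), Krtap22-2 (-5.00) and the protease Ctse, cathepsin E (-4.89). In fibroblasts 5 of these 8, all but Krtap5-1, Krtap5-4 and Ctse, held repeated values on every array. Their adjusted p-values were 0.0215 to 0.0377, and those of Krt33b and Foxn1, a transcription factor of the hair, were 0.0350 and 0.0390 at differences of -4.47 and -3.30. Keratin-associated genes are close paralogs, so probes may not tell them apart. WT skin replicate 4 was the lowest WT mouse for each of the 8, and without it their differences were larger, at -7.25 to -5.64.

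With the fibroblast effect under 0.3 in size, the largest positive differences were those of Pdk4, Asb5, Bcl2l15, Fabp3, Myadml2, Actn3, Cox6a2 and Eno3, of which Actn3 is in the skeletal muscle list. Pdk4, a kinase that turns down glucose oxidation, read 3.06, 4.73, 5.29 and 5.37 in Tsk2 skin, against 1.05, 1.03, 0.78 and 1.82 in WT skin. In fibroblasts it read 0.41, 0.19 and -0.084 with the Tsk2 allele, against 0.11, 0.41 and 0.44 with the WT allele. All Tsk2 mice lay above all WT mice and the fibroblast groups overlapped (difference 3.59 ± 0.64, SE; adjusted p = 0.0248). Cox6a2, a muscle subunit of cytochrome oxidase, read 3.31, 4.01, 3.46 and 4.06 in Tsk2 skin, against 1.29, 1.57, 1.14 and 1.61 in WT skin, and -4.26 to -4.05 in Tsk2-transfected fibroblasts, against -4.40 to -4.14 in WT-transfected ones. Its difference, 2.24 ± 0.28 (SE; adjusted p = 0.0109), stayed past the threshold whichever array was left out. Fabp3, a fatty acid binding protein of heart and muscle, Actn3, a sarcomere alpha-actinin, and Eno3, the muscle enolase, had skin effects of 2.52, 2.01 and 2.27. Asb5, Myadml2 and Bcl2l15, the last named above, had 2.27, 2.16 and 2.16. The fibroblast effects of these 6 ran from -0.29 to 0.13. Of 20 measured skeletal muscle genes, all were higher in Tsk2 skin, 3 passed for the difference (Actn3, Ttn and Des) and 4 for the mean effect. The probes of Ttn disagreed in sign, with differences from -0.64 to 3.18. None of them passed with each probe on its own (lowest adjusted p of 0.0642 by limma). The list averaged 4.72 to 5.86 in Tsk2 skin and 3.90 to 4.39 in WT skin, against -0.68 to -0.38 in Tsk2-transfected and -0.69 to -0.56 in WT-transfected fibroblasts. The share of muscle in each skin sample was not tested.

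Igf2 and H19, imprinted neighbours active in fetal growth, rose in skin, with effects near 0 in the cultures. Igf2 read 1.12, 1.03, 0.98 and 1.31 in Tsk2 skin, against -0.98, -0.84, -1.23 and -0.20 in WT skin, and -2.26, -2.33 and -2.15 with the Tsk2 allele in fibroblasts, against -2.35, -2.43 and -2.38 with the WT allele. The genotypes were apart in both systems, but the fibroblast effect was 0.14 and the difference 1.79 ± 0.28 (SE; adjusted p = 0.0203). H19 had 1.62 in skin and 0.034 in fibroblasts (0.0336), and its difference was not past the threshold with quantile normalization (adjusted p = 0.0528) and passed in 3 of the 14 fits with an array left out.

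Only 4 of the 273 differences had a skin effect under 0.3 in size, Acod1, Timp3, Itga11 and Slc25a48. Acod1, which makes itaconate in activated macrophages, read -5.81, -4.52, -4.66 and -4.99 in Tsk2 skin, against -5.12, -5.37, -4.57 and -5.01 in WT skin. Fibroblasts read -3.72, -3.95 and -3.87 with the Tsk2 allele, against -1.30, -0.49 and -0.42 with the WT allele. The skin groups overlapped and the fibroblast groups were far apart, and the difference was 3.13 ± 0.43 (SE; adjusted p = 0.0148). Timp3, an inhibitor of matrix proteases, lay at 0.34 to 0.73 in Tsk2 skin and 0.58 to 0.83 in WT skin, which overlapped. In fibroblasts it read 0.60, -0.069 and -0.20 with the Tsk2 allele, against -1.18, -1.58 and -1.24 with the WT allele, which did not (difference -1.64 ± 0.27, SE; 0.0203). Itga11, a collagen-binding integrin chain of fibroblasts, had effects of -0.22 in skin and 1.37 in fibroblasts (0.0208). Slc25a48, of the mitochondrial carriers, had 0.073 and 1.31 (0.0148), with 75% repeated values in skin and 66.7% in fibroblasts. Mmp3, a matrix protease, overlapped in skin, at -0.13 to 0.79 in Tsk2 mice and -0.65 to 0.47 in WT mice. In fibroblasts it read 1.83, 2.09 and 1.98 with the Tsk2 allele, against 2.74, 3.58 and 3.49 with the WT allele, all lower, with a difference of 1.87 (adjusted p = 0.0497) that passed in 2 of the 14 fits with an array left out. Aoc3, a cell-surface amine oxidase, lay at 4.94 to 5.75 in Tsk2 skin and 4.82 to 6.08 in WT skin. In fibroblasts it lay at 0.79 to 1.04 with the Tsk2 allele and -0.45 to -0.38 with the WT allele, past the threshold on the fibroblast arrays alone (0.0484), and the difference of -1.33 did not pass (0.103).

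Interferon response genes read lower with the Tsk2 allele in the cultures, while in skin the list differed little between the genotypes. These genes are switched on by interferon through STAT and IRF factors. Of 28 measured members, 17 were higher in Tsk2 than in WT skin, and 26 were lower in Tsk2-transfected than in WT-transfected fibroblasts. Of all 19532 genes, 10297 were higher in Tsk2 skin and 9726 were higher in Tsk2-transfected fibroblasts. The medians were 0.14 in skin and -0.51 in fibroblasts. By limma 0 passed for the difference (9 at an unadjusted p under 0.05, lowest adjusted p of 0.0602, for Cmpk2), and 2 were lower for the mean effect, Cxcl10 and Oasl1. Cxcl10, a chemokine for T cells, read -1.89, -1.94, 0.032 and -1.54 in Tsk2 skin, against -0.77, -0.080, -1.02 and -0.79 in WT skin, groups that overlapped through Tsk2 skin replicate 3. In fibroblasts it read 2.14, 2.0 and 2.17 with the Tsk2 allele, against 4.49, 4.63 and 4.70 with the WT allele, which were apart. The effects were -0.67 in skin and -2.50 in fibroblasts (adjusted p = 0.120 for the difference and 0.0199 for the mean effect). Rsad2, viperin, had 0.039 in skin and -2.10 in fibroblasts, and Oasl1 -0.57 and -1.22 (adjusted p = 0.107 and 0.371 for the differences). The chemokine Ccl5 did pass. It read -3.82, -3.03, -3.25 and -3.26 in Tsk2 skin, against -3.71, -3.69, -3.63 and -3.99 in WT skin, and -0.14, -0.16 and 0.029 with the Tsk2 allele in fibroblasts, against 1.36, 1.71 and 1.71 with the WT allele. The skin groups overlapped and the fibroblast groups were apart, and the difference of 2.10 ± 0.26 (SE; adjusted p = 0.0109) held whichever array was left out. The list averaged -0.96 to -0.055 in Tsk2 skin and -0.95 to 0.090 in WT skin, groups that overlapped, against 1.61 to 1.75 in Tsk2-transfected and 2.30 on each array of WT-transfected fibroblasts. Ccl17, a chemokine of T cells, rose in skin, at 2.11, with 0.21 in fibroblasts (adjusted p = 0.0295 for the mean effect).

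Promoters of 3 of these genes are shown for the interferon element, GAAANNGAAA, sought on both strands in the same 250 bases. It was present in 2.98% of all promoters and in 10 of 28 promoters (35.7%) of the 22 interferon response genes with an entry. Capitals mark it, on whichever strand. It begins 213 bases before the start in Cxcl10 (chr5:92348890-92349119, minus strand), 120 in Rsad2 (chr12:26456453-26456602, minus strand) and 104 and 85 in Ifit1 (chr19:34640739-34640888, plus strand), whose effects were 0.088 in skin and -0.86 in fibroblasts.
Cxcl10: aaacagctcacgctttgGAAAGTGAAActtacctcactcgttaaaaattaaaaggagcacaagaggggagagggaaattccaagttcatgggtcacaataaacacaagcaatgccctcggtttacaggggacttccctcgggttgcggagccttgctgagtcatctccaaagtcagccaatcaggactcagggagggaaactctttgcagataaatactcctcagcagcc
Rsad2: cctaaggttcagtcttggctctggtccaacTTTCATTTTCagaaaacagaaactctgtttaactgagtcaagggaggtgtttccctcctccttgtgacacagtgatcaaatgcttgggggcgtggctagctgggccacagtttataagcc
Ifit1: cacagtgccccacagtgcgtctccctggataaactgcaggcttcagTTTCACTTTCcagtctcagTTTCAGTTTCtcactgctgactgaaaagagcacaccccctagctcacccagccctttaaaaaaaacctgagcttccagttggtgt

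Sterol synthesis genes, which make cholesterol, read slightly lower in Tsk2 skin and slightly higher with the Tsk2 allele in the cultures. Of 19 measured, 16 were lower in Tsk2 skin and 18 were higher in Tsk2-transfected fibroblasts, with 15 of opposite sign (9281 of all 19532 genes). The medians were -0.28 in skin and 0.22 in fibroblasts, and 0 passed either test by limma (6 and 4 at an unadjusted p under 0.05 for the difference and the mean effect, lowest adjusted p of 0.0725, for Nsdhl). The list averaged 0.15 to 0.74 in Tsk2 skin and 0.59 to 0.79 in WT skin, which overlapped. In fibroblasts it averaged 0.66 to 0.73 with the Tsk2 allele and 0.41 to 0.48 with the WT allele, which did not.

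Among markers of single cell types, single genes of the sebaceous gland and mast cell lists passed for the difference. Of all 19532 genes, 176 passed as positive for the difference and 260 as higher for the mean effect. Of 11 measured sebaceous gland genes 1 passed for the difference, Acsbg1, an acyl-CoA synthetase, at 1.2 in skin and -0.80 in fibroblasts (adjusted p = 0.0148). Scd1, a lipid desaturase, passed for the mean effect at 1.44 and 0.34 (0.0384), and so did Pparg, which is also in the adipocyte list. Of 11 mast cell genes 1 passed for the difference, Hdc, which makes histamine, at 1.13 and -0.74 (0.0309), and Gata2, a transcription factor, for the mean effect at 1.25 and 0.14 (0.0250). Melanocyte genes were lower in Tsk2 skin for 12 of 13 measured members, with a median of -1.06, against -0.013 in fibroblasts. Hair shaft genes were lower in the same Tsk2 samples, as given above, and their part in the melanocyte values was not tested. Slc24a5, an ion exchanger of pigment cells, passed for the mean effect at -2.52 and -0.43 (0.0363). Of 20 dermal fibroblast genes 13 were higher in both systems, with medians of 0.80 in skin and 0.20 in fibroblasts. The plot of list medians shows the hair list far from all others on the skin side and the interferon list as the one with the lowest median in fibroblasts.

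**Figure D3:**
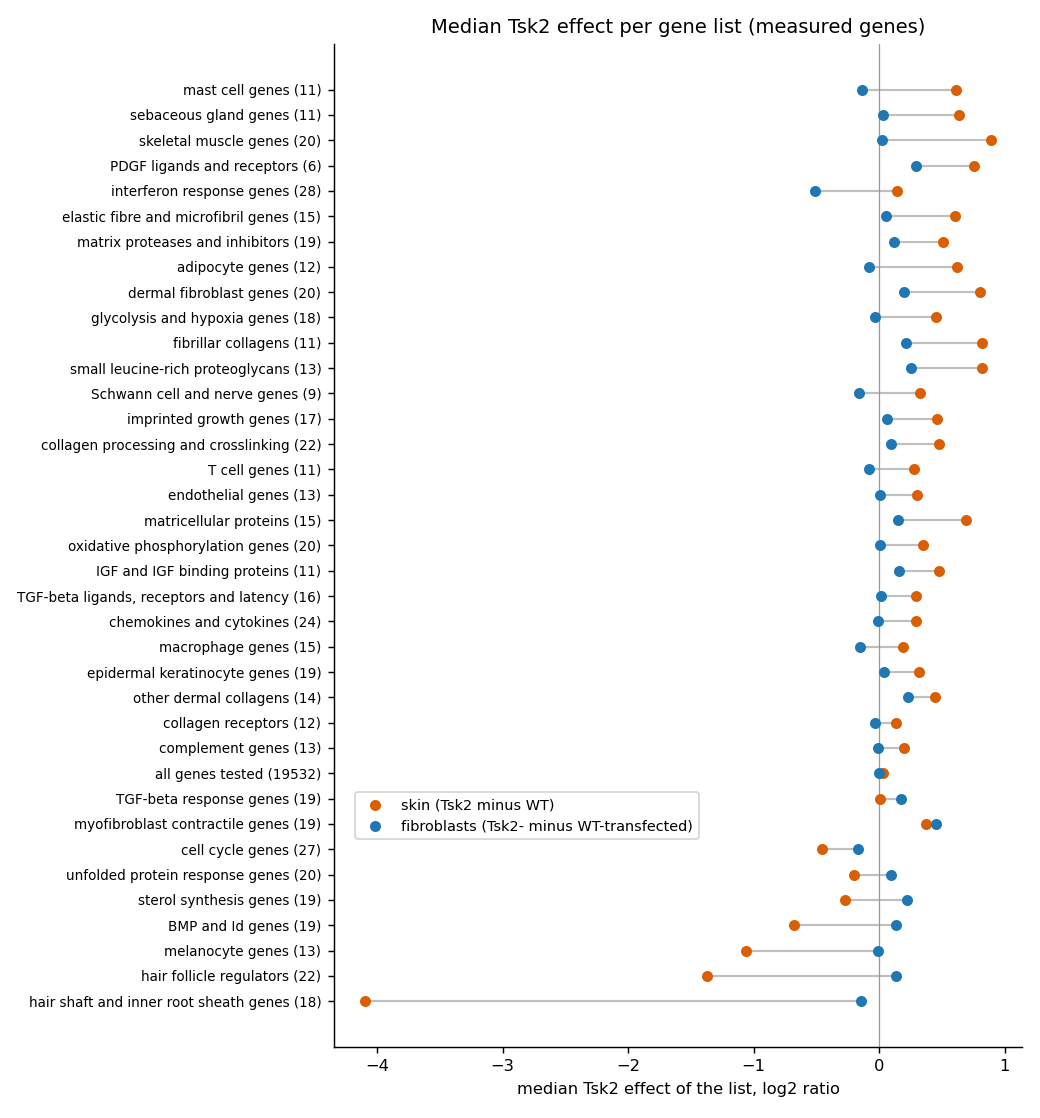
Median Tsk2 effect (log2) of each gene list in skin and in fibroblasts, with the number of measured genes beside each name. The hair shaft list lies at -4.09 in skin, the interferon list at -0.51 in fibroblasts, and most matrix lists lie above 0 in both.

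**Figure D4:**
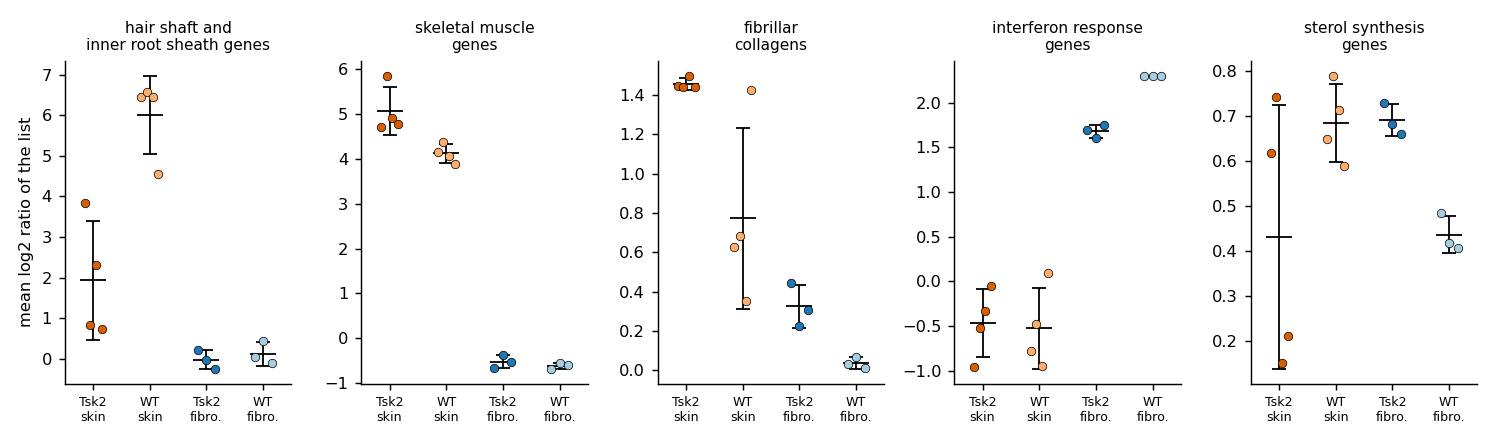
Mean log2 ratio to the reference of the genes of selected lists on each of the 14 arrays, by group in the order Tsk2 skin, WT skin, Tsk2-transfected and WT-transfected fibroblasts. Points are arrays and bars are the mean ± SD. WT skin replicate 4 is the lowest WT mouse for the hair list, at 4.56, and the highest for fibrillar collagens, at 1.43.

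The genes also differed in level between the systems. In WT skin 16% of all 19532 genes read more than 1 above their level in WT-transfected fibroblasts. The share was 35.8% among the 176 positive differences and 76.3% among the 97 negative ones, and among the shared genes it was 35.2% of the 227 higher and 48.9% of the 94 lower. These levels come partly from the arrays that made the calls, so they describe the genes and are no test.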

How the data were processed

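The deposited series matrix holds, per the labels, 1 value for each of 41174 probes on each of 14 arrays, and its values were read as log2 ratios of sample over reference. Neither the log base nor the feature extraction and normalization is given in the sources used here; deposited values ran from -9.553 to 10.96, with array medians of 0 to 0.043. The files used here hold no spot intensities, so brightness over background was not tested, and the number of arrays limits the precision. All arrays carry the sample in Cy5 without dye swap, so dye bias was not assessed. The design text counts 3 mice a genotype, whereas the labels give 4 arrays, and all 4 were used.

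The 32664 probes that the platform annotation gives a single gene were averaged to 19532 genes (45 probes name more than 1 gene and 8465 are unnamed here), 8511 of them on more than 1 probe. Names were checked against RefSeq through gene identifiers, with 19410 found and 0 changed. Limma 3.58.1 (R 4.3.3) fitted 4 group means over all 14 arrays, and the difference of the Tsk2 effects and their mean were tested with eBayes (two-sided, Benjamini-Hochberg over all genes). The effect in each system was also fitted on its own arrays. On simulated data of 19524 genes the test of the difference recovered 20% of true differences of 1 and 72% of 2, with 3 false calls. That of the mean effect recovered 71% and 97%, with 16 false calls. Genes changed in skin alone were left out of these 16, so the count does not cover mean effects that rest on 1 system. The simulated arrays had independent normal noise with the spread of each gene in its system. No outlying mouse, repeated values or shared transfection was modelled, so these rates do not vouch for the calls on the real arrays.

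Named genes were the 12 largest differences in each direction with opposite signs and no overlap in either system. Shared calls with effects of at least 0.58 in both without overlap were included, up to 12 in each direction. So were the 8 largest differences with an effect under 0.3 in the other system. A fixed list of names gave 35 measured genes. From each of 36 gene lists the 4 members with the lowest p for the difference were taken. Those past the threshold for the difference or the mean effect were named. Acta1, Actc1 and Tgfb3 and the members of lists named beside counts were added after their values were seen. The members and lists were chosen with earlier results of these data known. In total 27 alternative settings were compared, among them array centring, quantile normalization, probe choice, treatment of zeros and repeated values, array weights, a separate spread in each system, a replicate block and leaving out each array. Deviations from the group means had correlations of 0.019, 0.0082 and 0.017 between samples with the same transfection number. Between samples with different numbers they were -0.025 to 0.0069, all below these. With so few arrays in a group, such correlations cannot settle whether the numbers pair the samples. The main fit did not pair them, and the replicate block did.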

Additional observations from a re-analysis of the deposited data

Results flagged for a closer look

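In a test of the difference itself on all 14 arrays, the Tsk2 effect differed between skin and fibroblasts for 60 named genes. Most of them were named because they passed this test, so the count is no further result. Values are differences of the effects, skin minus fibroblasts, and that of Dlx1 rests on listed zeros and is no fold. The probes of Ttn disagreed in sign. The difference was positive for Il33 (3.28), Cytl1 (2.83), Clec2d (2.73), Fam180a (2.67), Adssl1 (2.63), Mrln (2.58), Kcne1l (2.54), Pacsin3 (2.46), Ptpn22 (2.43), Bcl2l15 (2.41), Cdh15 (2.41), Lamb3 (2.40), Pdk4 (3.59), Asb5 (2.57), Fabp3 (2.39), Myadml2 (2.30), Actn3 (2.25), Cox6a2 (2.24), Eno3 (2.22), Acod1 (3.13), Fmod (1.59), Lum (1.74), Ccl5 (2.10), Igf2 (1.79), H19 (1.58), Mmp3 (1.87), Des (1.83), Acsbg1 (2.0), Hdc (1.87) and Ttn (1.55). It was negative for Dlx1 (-5.36), Csdc2 (-4.86), Krtap5-2 (-4.76), Bmp8a (-4.68), Hunk (-2.86), Ctps (-2.77), Unc5b (-2.71), Epha4 (-2.67), Gpx2 (-2.65), Ccdc68 (-2.55), Lurap1l (-2.43), Sytl2 (-2.26), Krtap4-16 (-3.58), Krt26 (-6.32), Krtap4-13 (-6.26), Prr9 (-5.93), Krtap5-1 (-5.41), Krtap5-4 (-5.25), Krt34 (-5.09), Krtap22-2 (-5.00), Ctse (-4.89), Timp3 (-1.64), Itga11 (-1.58), Slc25a48 (-1.24), Krt33b (-4.47), Krt33a (-5.49), Foxn1 (-3.30), Bambi (-2.18), Id4 (-2.13) and Smad6 (-2.21).

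Single skin arrays stood away from the rest of their group by Dixon's criterion for 28 of 301 groups of 4 values tested, and chance alone gives about 1 in 20. WT skin replicate 4 was set apart at 2.24 for Lamb3, 2.34 for Krtap5-2, 2.59 for Krtap5-1, 2.18 for Krtap5-4, 3.19 for Krtap22-2, 2.60 for Eno3, 1.21 for Col5a2, -2.005 for Lox, 4.95 for Msx2, 4.87 for Sparcl1 and 0.47 for Mmp3. It was also set apart in the list averages, at 0.86 for elastic fibre genes, 4.56 for hair shaft genes, 1.23 for BMP and Id genes and -0.70 for cell cycle genes. Tsk2 skin replicate 1 was set apart at 0.54 for Unc5b, 2.46 for Gpx2, 0.60 for Ccdc68, 0.11 for Dner, 1.62 for Bmp2, 0.69 for Krtap5-1 and 5.13 for Krt33a. Tsk2 skin replicate 2 was set apart at 0.90 for Krtap28-13, 0.042 for P3h3 and 6.58 for Acta1. Tsk2 skin replicate 3 was set apart at 1.5 for the average of fibrillar collagens and replicate 4 at 3.10 for Clec2d, and WT skin replicate 2 at 0.23 for the average of oxidative phosphorylation genes.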

How the results depend on the processing

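The 273 differences were 268 with arrays centred, 308 with quantile normalization, 322 with exact zeros missing, 405 without repeated values, 273 with the most variable probe, 305 with each probe on its own and 257 with robust fitting. They became 1216 with array weights (663 positive, 553 negative, or 54.5% positive against 64.5%), 758 with a separate spread in each system (451 and 307) and 7 with WT-transfected 3A and 3B as 1 sample (5 and 2). With the replicate block, which takes the transfection numbers as a pairing, 0 differences passed by limma in either direction. For the difference 2581 genes had an unadjusted p under 0.05, and 1 shared gene (Cox7a1) and 0 genes of fibroblasts passed. The 321 shared genes became 517 with quantile normalization, 542 without repeated values, 574 with each probe on its own, 1449 with array weights, 906 with a separate spread and 35 with 3A and 3B as 1 sample, and 0 when both p-values had to pass. Of the shared genes 70.7% were higher, against 58.6% with quantile normalization. The 568 genes of skin became 938 without repeated values, 1342 with array weights and 2814 in the fit of all arrays. The 10 genes of fibroblasts became 3 with arrays centred, 5 with the most variable probe, 6 with each probe, 16 with array weights, 2 with robust fitting and 0 with 3A and 3B as 1 sample. With each probe on its own 841 probes were apart with the same sign and 485 with opposite signs. Leaving out 1 array gave 6 to 1492 differences (5 to 750 positive, 1 to 742 negative), 24 to 1325 shared genes, 0 to 1827 genes in skin, 0 to 3 in fibroblasts, and 521 to 765 genes apart with the same sign and 325 to 577 with opposite signs. Taking the mean over a list in place of the median gave differences of 0.41 for elastic fibre, 0.20 for TGF-beta ligand, -1.0 for BMP and Id, 0.53 for sebaceous, 0.53 for macrophage, 0.56 for mast cell and 0.46 for endothelial genes. Among named genes the difference of Postn was -0.57 with exact zeros missing, opposite in sign to its value with all values used. Over the arrays left out that of Col1a2 ran from -0.15, without WT skin replicate 3, to 0.57, and that of Ccn2 from -0.11, without Tsk2 skin replicate 4, to 0.75. Of the other comparisons of a named gene with an alternative, 1224 kept their side of the threshold, 223 lost it and 21 gained it, and with an array left out 1114 kept it, 744 lost it and 16 gained it. The causes were not tested. The number of arrays and the lack of spot intensities limit the precision.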

Other observations

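The listed genes of oxidative phosphorylation and of glycolysis and hypoxia mostly read higher in Tsk2 than in WT skin, and no list member passed a test. Cox6a2, Eno3, Pdk4 and Fabp3, which passed for the difference as given above, were not among the members counted here. All 20 measured oxidative phosphorylation genes were higher in Tsk2 skin and 11 were higher in Tsk2-transfected fibroblasts, with medians of 0.35 in skin and 0.0034 in fibroblasts. Of 18 glycolysis and hypoxia genes 15 were higher in Tsk2 skin and 8 were higher with the Tsk2 allele in the cultures. The list, with Ldha, lactate dehydrogenase, at 1.16 and -0.060, had medians of 0.45 and -0.035. By limma 0 genes of either list passed in skin, for the difference or for the mean effect, with 8 and 9 of them at an unadjusted p under 0.05 for the difference. Skeletal muscle genes were higher in the same skin samples, and their part in these values was not tested. Adipocyte genes had medians of 0.62 and -0.081, and Pparg, the regulator of fat cells, passed for the mean effect at 0.80 in skin and 0.47 in fibroblasts (adjusted p = 0.0425). Adamts5, a protease that cuts proteoglycans, had its larger effect in fibroblasts, at 0.40 in skin and 1.51 in fibroblasts, and passed for the mean effect (0.0143).

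Of 19 measured TGF-beta response genes, 4 passed as higher for the mean effect and 1 as negative for the difference. Over all 19532 genes these counts were 260 and 97. Calls among contractile and skeletal muscle genes are given above. The median effects of the remaining lists in skin and in fibroblasts were 0.44 and 0.23 for other dermal collagens and 0.69 and 0.15 for matricellular proteins. They were 0.60 and 0.057 for elastic fibre genes, 0.48 and 0.092 for collagen processing and 0.51 and 0.12 for matrix proteases and inhibitors. They were 0.0015 and 0.17 for TGF-beta response genes, 0.29 and 0.014 for TGF-beta ligands and receptors, 0.37 and 0.45 for contractile genes, 0.76 and 0.29 for PDGF genes, 0.48 and 0.16 for IGF genes, 0.46 and 0.062 for imprinted growth genes and 0.13 and -0.033 for collagen receptors. Hair follicle regulators had -1.37 and 0.13, and unfolded protein response genes -0.20 and 0.092. Chemokines and cytokines had 0.29 and -0.0068, and complement genes 0.20 and -0.0083. Among cell type markers the medians were 0.32 and 0.034 for keratinocytes, 0.64 and 0.026 for sebaceous glands, 0.19 and -0.15 for macrophages, 0.61 and -0.14 for mast cells, 0.28 and -0.084 for T cells, 0.30 and 0.0042 for endothelium and 0.32 and -0.16 for Schwann cells and nerve. Skeletal muscle genes had 0.89 and 0.022.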
